A study of Rattus norvegicus with 6 samples.

Results

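CUT&Tag was run on rat tenocytes, the fibroblast-like cells of tendon, with antibodies to 3 histone lactylation marks, H3K9la, H4K8la and H4K16la. The cells were labelled wild type (WT) and came from tendon. For every mark there was 1 library of cells given 20 mM lactate and 1 library of untreated cells, called control here, so 6 libraries in 6 groups of 1. The labels name neither the donor animals nor their age or sex, nor how long lactate was given. The regions described here are those where H4K16la had a peak in both the lactate and the control library while none of the 4 lists of H3K9la and H4K8la had one. Members were chosen by the peak calls themselves: all peaks of the 6 lists were pooled, those overlapping by 1 bp or more were merged, and each merged region was scored for the lists present in it. This gave 1645 members among 176698 regions. They made up 9.32% (Wilson 95% interval 8.90 to 9.76) of the 17650 regions with H4K16la in both conditions, which are called stable H4K16la regions below. Positions are in build rn7 and count from 1. Neither the genome sequence nor the genes of that build were used, so regions are named by position alone, and the tenocyte identity was not checked against marker genes.

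Lactylation places a lactyl group, which derives from lactate, on a lysine. It competes for sites that can also be acetylated, and lysines 8 and 16 lie on the same tail of histone H4, while lysine 9 lies on the tail of H3. Acetylation of H4 lysine 16 is known for loosening the packing of nucleosomes, and both acetylation and lactylation of histones are usually found at active promoters and enhancers. CUT&Tag reads such a mark by tethering a transposase to the antibody, which cuts the DNA nearby and adds the sequencing adapters. A region with H4K16la alone is therefore one where only this antibody gave enough fragments to be called.

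The H4K16la libraries differed in background, which stands in for depth here because depth in reads is unknown. The genome-wide background recovered from the lists, in fragments covering a base, was 2.84 in H4K16la lactate and 1.53 in H4K16la control. For the other marks it was 1.88 in H3K9la lactate and 2.17 in H3K9la control, and 1.55 in H4K8la lactate and 1.32 in H4K8la control. With 1 library per group there is no replicate check of any difference, no test was made, and all intervals cover counting error only. Fragments that overlap or are PCR copies of each other are not independent, so the true errors are wider.

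H4K16la-only regions were narrower and weaker than the other stable H4K16la regions. Their median width was 615 bp (middle 50% from 507 to 765), against 1078 bp (842 to 1365) for the 16005 stable H4K16la regions that also held a peak of another mark. Wider regions have more room to meet another peak, so part of this contrast follows from the rule. The single H4K16la peaks were narrower too, with a median of 437 bp in lactate and 421 bp in control at the members, against 575 bp in lactate and 554 bp in control at the regions with another mark. All but 2 members consisted of exactly 1 lactate and 1 control peak. At the summit, where most fragments overlap, the members had a median of 17 fragments in the lactate library (from 10 to 51) and 12 in control (from 7 to 32). The corresponding medians at stable regions with another mark were 22 in lactate and 17 in control. The authors' −log10 q, the peak caller's significance after correction for multiple testing, had a median of 3.25 at the members in lactate and 2.88 in control, against 5.20 in lactate and 4.78 in control at the regions with another mark. Regions with a single other mark in both conditions were of like size. The 2208 regions with only H3K9la had a median width of 638.5 bp and a median −log10 q of 3.12 in lactate and 3.59 in control. The 1348 regions with only H4K8la had 689 bp, 2.88 in lactate and 3.50 in control. Stable H3K9la and H4K8la regions with another mark are not given here for comparison. Over all peaks of the H4K16la lists, the median −log10 q was 3.398 in lactate and 3.302 in control. The median peak width was 448 bp in lactate and 456 bp in control. In both measures the members lay closer to these medians than to the regions with another mark. The values at the members belong to the calls that chose them and are given as a description.

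The share of stable H4K16la regions without another mark dropped steadily as the peaks grew stronger. Where the mean −log10 q of the lactate and control peaks was below 2, 61 of 151 regions (40.4%, interval 32.9 to 48.4) carried H4K16la alone. Between 3 and 4 the share was 15.1% (14.0 to 16.3), between 5 and 7 it was 2.92% (2.44 to 3.48), and between 10 and 20 it was 0.117%, or 2 of 1707 regions. None of the 163 regions at 20 or above was a member (interval 0 to 2.30). Over the same bins, the share of regions with a peak in all 4 lists of the other marks climbed from 5.30% to 98.2%. Counted by the weaker of its peaks, 501 members reached a −log10 q of 3 in both libraries, 45 reached 5, 12 reached 7 and 1 reached 10. Of all stable H4K16la regions, 5302 reached 5 in both libraries, so the 45 members were 0.849% (0.635 to 1.13) of them.

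**Figure D1:**
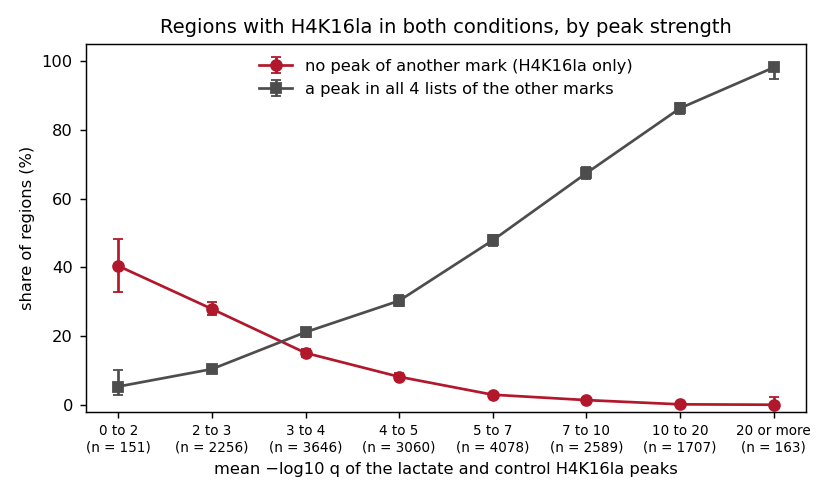
Share of the stable H4K16la regions (vertical axis, percent) with H4K16la alone (circles) and with a peak in all 4 lists of the other marks (squares), by the mean −log10 q of the lactate and control H4K16la peaks (horizontal axis, number of regions in brackets). Bars are Wilson 95% intervals; the H4K16la-only share is 40.4% in the weakest bin and 0.117% between 10 and 20, where 2 of 1707 regions are members.

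Depth limits what the missing peaks mean. At genome-wide background, the smallest summit called was 8 fragments in both H3K9la libraries, 7 in H4K8la lactate and 6 in H4K8la control, which is 4.26 and 3.69 times background for H3K9la lactate and control and 4.52 and 4.56 times for H4K8la lactate and control. The members' own H4K16la summits stood at a median of 5.98 times genome-wide background in lactate and 7.84 times in control. Scaling each member's lactate summit and local background to the depth of the other libraries, 89.1% would have reached the lowest −log10 p called in H3K9la lactate, 97.6% in H3K9la control, 73.8% in H4K8la lactate and 66.6% in H4K8la control. From the control summits, 100% reached it in H3K9la lactate, H3K9la control and H4K8la lactate, which the rule fixed in advance. Members had to be called in H4K16la control, whose background (1.53) was lower than in those libraries. Its lowest −log10 p called (3.33) was higher than theirs (3.30, 3.17 and 3.30). Only H4K8la control was open to falling short, and 99.5% (99.0 to 99.8) reached it there. Members were required to have no peak in these 4 lists, so the observed share was 0 by construction. Over all 17650 stable H4K16la regions the lactate summits predicted 96.0%, 99.1%, 89.4% and 85.8% in the same order of libraries, while peaks were found at 64.6%, 75.8%, 60.9% and 73.1%. Within 1 condition, the scaled lactate summit fell short of the lowest p called in H3K9la lactate at 180 members and in H4K8la lactate at 431. There a mark as strong as H4K16la was not detectable in that lactate library at this depth. The scaled control summit fell short in H3K9la control at 0 members, as the rule fixed, and in H4K8la control at 8. Members had to be called in both H4K16la libraries, and the part of that selection in the shares not fixed in advance was not tested.

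The strongest member lay on chromosome 19 from 24411427 to 24412076. Its summit held 38 fragments in lactate and 31 in control, and it was the only member with a −log10 q of at least 10 in both libraries (11.3 in lactate, 11.5 in control). Its local background was raised, at 2.60 times the genome-wide one in lactate and 3.11 times in control. The lactate and control summits were 22 bp apart, and the nearest peak of another mark, in H3K9la control, was 3436 bp away.

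The next member, on chromosome 2 from 221248957 to 221249809, had no such rise. Its local background equalled the genome-wide one in both libraries, and its fold over local background, a value of the authors' peak caller, was 7.29 in lactate and 6.32 in control. It had 27 fragments at the summit in lactate and 15 in control, with both summits at 1 base, and the nearest other mark was 21617 bp away. Relative to the depth of each library these summits were close to equal, at 9.50 times genome-wide background in lactate and 9.80 times in control. Chromosome 1 from 197973338 to 197973720 was another member of this kind, with 25 fragments in lactate and 16 in control, both over a local background at the genome-wide level. Its −log10 q was 11.7 in lactate and 8.22 in control. The nearest other H4K16la peak was 94478 bp away, while an H3K9la lactate peak lay 9558 bp away.

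A pair of strong members passed the overlap criterion by a short distance. On chromosome 2 from 184075023 to 184075491 the −log10 q was 12.8 in lactate and 6.93 in control, yet an H4K8la lactate peak began 14 bp outside the region. On chromosome 6 from 140398224 to 140399006 it was 12.1 in lactate and 7.57 in control, with an H3K9la lactate peak 31 bp away. Calling these regions free of the other marks therefore rests on where the caller ended a peak. Across the 10 members of highest mean −log10 q, that mean ran from 8.82 to 11.4. Chromosome 1 held a further 2 of them, from 119055609 to 119055993 and from 53326030 to 53327443. The last 3 lay on chromosome 3 (99304993 to 99305570), chromosome 5 (151900315 to 151900966) and chromosome 13 (62577764 to 62578618).

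Near the criterion itself, 39 members lay within 100 bp of a peak of another mark and 25 within 50 bp. The nearest was 1 bp from an H4K8la control peak, on chromosome 2 (164564582 to 164565145), and the next 4 bp from one, on chromosome 19 (36662793 to 36663294). Just outside it, 2054 stable H4K16la regions met a single list of another mark. Their median overlap was 361 bp, and 76 overlapped by 100 bp or less. The smallest overlaps were 4 bp on chromosome X from 16299151 to 16300173 (an H4K8la lactate peak) and 6 bp on chromosome 9 from 23672927 to 23673945 (an H4K8la control peak). At the threshold on strength, the weakest members were on chromosome 15 from 4200745 to 4201275, with a −log10 q of 1.44 in lactate and 1.73 in control, and on chromosome 8 from 4204769 to 4205402, with 1.65 in lactate and 1.52 in control. The second of these had 10 fragments in lactate and 7 in control, the fewest that either list holds at genome-wide background.

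Summit signal relative to depth was lower with lactate at most members, as at most stable H4K16la regions. Raw fragments were more numerous in lactate, the library with the higher background, at 1504 of 1645 members (91.4%). Over all stable H4K16la regions this held for 78.9%. Divided by each library's genome-wide background, the summit was lower with lactate at 1415 members (86.0%, interval 84.3 to 87.6). It was lower at 88.9% (88.4 to 89.3) of all stable H4K16la regions. The members' median log2 ratio of lactate over control was −0.36 (middle 50% from −0.60 to −0.13). At the stable regions with another mark the median was −0.52 (−0.81 to −0.24). A drop of at least 1.5-fold was seen at 436 members, or 26.5% (24.4 to 28.7), beside a background of 43.0% of all 17650 stable H4K16la regions. A gain of at least 1.5-fold was seen at 4 members, or 0.243%, beside 0.374% of all stable H4K16la regions. The values come from the same peaks that chose the members, and nothing is read from the gap between these shares. The smallest summit called at genome-wide background stood at 3.52 times background in lactate and 4.57 times in control, and the part of this unequal limit in the ratios was not tested.

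**Figure D2:**
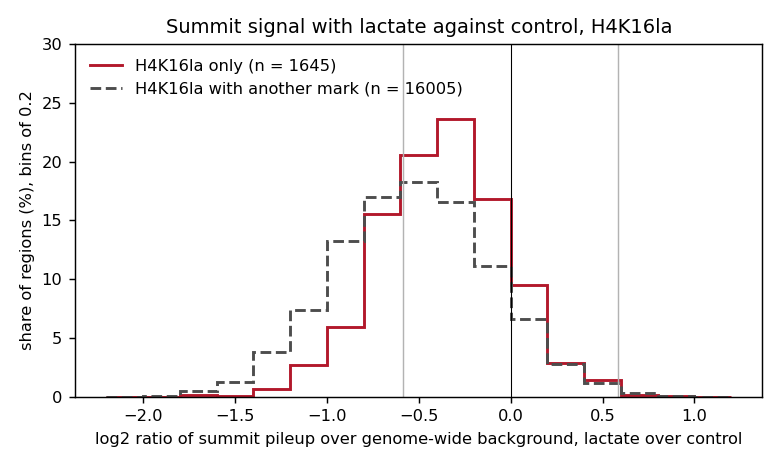
Distribution of the log2 ratio of summit pileup over genome-wide background, lactate over control (horizontal axis, bins of 0.2), at H4K16la-only regions (solid line, n = 1645) and at stable H4K16la regions with another mark (dashed line, n = 16005), as percent of each set. Grey lines mark 1.5-fold changes and the black line no change; the medians are −0.36 and −0.52.

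Measured by the authors' folds over local background, the median log2 ratio was −0.17 at the members and −0.16 at the regions with another mark. By that measure 113 members (6.87%) were at least 1.5-fold lower with lactate, and 9.02% of all stable H4K16la regions. These folds also add 1 to the pileup and to the background, which the ratio above does not. On chromosome 2 from 221248957 to 221249809 the local background equalled the genome-wide one in both libraries. There the folds were 7.29 in lactate and 6.32 in control, but the multiples of genome-wide background 9.50 and 9.80. The measures thus differ in more than the background used, and the part of each difference was not tested.

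Among the 45 members with a −log10 q of at least 5 in both libraries, 42 were lower and 3 higher with lactate relative to depth. None was 1.5-fold higher. Of all stable H4K16la regions, of any strength, 88.9% were lower, and this share at like strength is not given here. A drop of at least 1.5-fold was seen at 11 of the 45 (24.4%). It was seen at 53.0% of the 5302 stable H4K16la regions that reached 5 in both libraries. The median log2 ratio was −0.39 at the 45 and −0.61 at the 5302. The lowest log2 ratio, −0.97, was on chromosome 9 from 16789674 to 16790181, with 18 fragments in lactate and 19 in control, although the lactate library had the higher background. Chromosome 14 from 72937967 to 72938608 had 24 fragments in both libraries, a log2 ratio of −0.89. Next came chromosome 1 from 53326030 to 53327443, with 25 fragments in lactate and 24 in control (−0.83), and chromosome 1 from 213578779 to 213579241, with 23 in lactate and 21 in control (−0.76). At these 4 regions the summits of both libraries thus differed by at most 2 fragments.

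At the other end, the 3 members above 0 were on chromosome 13 from 62577764 to 62578618 (29 fragments in lactate, 14 in control, log2 ratio 0.16), on chromosome 16 from 9957171 to 9957790 (27 in lactate, 14 in control, 0.06) and on chromosome 15 from 7416981 to 7417677 (32 in lactate, 17 in control, 0.02). Chromosome 17 from 79423236 to 79424022 followed with 24 fragments in lactate and 13 in control (−0.01). None of these 4 departed from equal signal per depth by as much as 1.5-fold. The 4 members with a gain of at least 1.5-fold, named after their values were seen, were all weak in control. The first, on chromosome 5 from 131182285 to 131182970, had 23 fragments in lactate and 7 in control. Each of the others had 20 in lactate and 7 in control: chromosome 2 (60610905 to 60611711), chromosome 3 (118862227 to 118862940) and chromosome 4 (81086253 to 81086796). In the order named, their lactate and control summits were 211, 590, 91 and 256 bp apart, so the counts compared were read at different positions. A count of 7 is the smallest the control list holds at genome-wide background.

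The lactate and control peaks of a member did not always mark the same spot. Their summits were a median of 158 bp apart (60 to 298), against 132 bp (42 to 270) at stable regions with another mark. The control summit fell inside the lactate peak at 1137 members (69.1%, interval 66.8 to 71.3), against 82.2% (81.6 to 82.8) of the regions with another mark. Precision followed strength: the median distance was 186 bp at members with a mean −log10 q below 3, 156 bp from 3 to 5 and 77 bp from 5 to 10. The regions with another mark had 215, 172 and 106 bp in these bins. At like strength the members' summits were thus closer together in the median, the reverse of the contrast over all strengths. The widest members showed both behaviours. On chromosome 7 from 65177616 to 65179401, 1786 bp wide, the summits were 45 bp apart, while on chromosome 15 from 49044340 to 49046010, 1671 bp wide, they were 1081 bp apart. Chromosome 9 from 108784681 to 108786388, 1708 bp wide, lay between them at 589 bp. Across the 1645 members the lactate and control −log10 q were only loosely related (Spearman's rho 0.16, Pearson's r 0.24), against 0.49 and 0.66 over all stable H4K16la regions. Both are descriptions over regions that share 2 libraries, and the members span a narrow range of strength.

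The recovered local background at H4K16la-only regions was moderately raised. The local background had a median of 1.47 times the genome-wide one in lactate and 1.45 times in control, against 1.73 in lactate and 2.07 in control at the stable H4K16la regions with another mark. It equalled the genome-wide one in both libraries at 125 members (7.60%, interval 6.41 to 8.98), against 1.83% (1.63 to 2.05) of the regions with another mark. The local background was at least 3 times the genome-wide one in either H4K16la library at 78 members (4.74%, interval 3.82 to 5.88). That held for 16.4% (15.9 to 17.0) of the stable H4K16la regions with another mark. Regions with only H3K9la and with only H4K8la, scored in their own libraries, had such a local background at 27.1% (25.3 to 29.0) and 29.5% (27.2 to 32.0). The marks differed in this before any choice of single-mark regions. In the control libraries a local background of 3 or more was seen at 15.2% of stable H4K16la, 34.4% of stable H3K9la and 45.4% of stable H4K8la regions. Within each mark the single-mark share was highest where the local background was lowest. At the genome-wide level it was 32.9% (29.8 to 36.1) for H4K16la, 24.8% (22.2 to 27.7) for H3K9la and 27.8% (24.8 to 31.0) for H4K8la. At 3 or more it was 2.80% (2.24 to 3.50) for H4K16la, 7.97% (7.38 to 8.61) for H3K9la and 4.75% (4.32 to 5.23) for H4K8la. The local background entered the peak calls, so this too describes the choice of members.

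**Figure D3:**
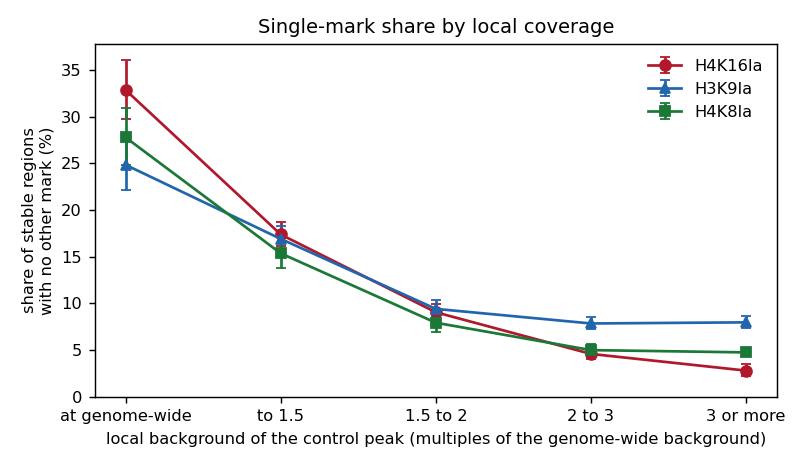
Share of stable regions of each mark without a peak of another mark (vertical axis, percent) by the local background of the control peak in multiples of the genome-wide background (horizontal axis). Bars are Wilson 95% intervals; for H4K16la (circles) the share is 32.9% at the genome-wide level and 2.80% at 3 or more, and for H3K9la (triangles) 24.8% and 7.97%.

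Most members had another mark within 10 kb, as did most H4K16la regions called without another mark in 1 condition only. The median distance to the nearest H3K9la or H4K8la peak was 5351 bp (middle 50% from 2259 to 9380), 228 members (13.9%) lay within 1 kb of one, 1274 (77.4%) within 10 kb and 1630 (99.1%) within 50 kb. Regions with only H3K9la were 4331 bp and regions with only H4K8la 3516.5 bp from the nearest peak of another mark in the median, with 16.9% and 24.5% within 1 kb. The lists they were measured against differ in length, so these distances cannot be ranked by mark. H4K16la regions called without another mark in 1 condition only lay at medians of 5343 bp (lactate alone) and 5228 bp (control alone), close to the members. Of the lactate-alone regions 14.4% lay within 1 kb and 74.0% within 10 kb. Of the control-alone regions these shares were 16.2% and 74.5%. Distances at positions without an H4K16la peak were not measured. H4K8la supplied the nearest peak at 857 members (52.1%, interval 49.7 to 54.5) and H3K9la at 788 (47.9%), where H4K8la held 49.0% and H3K9la 51.0% of the peaks searched. The lists did not all lean the same way. H4K8la control was nearest at 33.5% of members (31.3 to 35.8) and held 28.9% of the peaks, while H4K8la lactate was nearest at 18.6% (16.8 to 20.6) and held 20.1%. H3K9la lactate was nearest at 21.1% with 21.9% of the peaks, and H3K9la control at 26.8% with 29.1%.

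**Figure D4:**
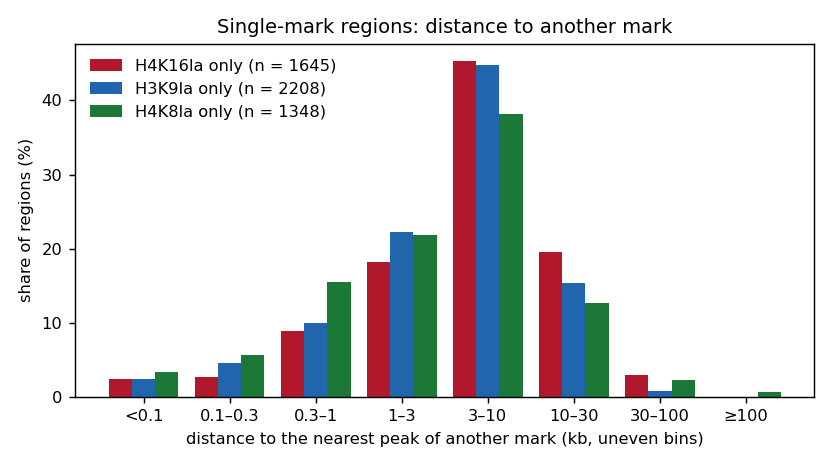
Share of single-mark regions (vertical axis, percent) by the distance to the nearest peak of another mark (horizontal axis, kb, uneven bins) for regions with only H4K16la, only H3K9la and only H4K8la in both conditions. The tallest bar of each set is at 3 to 10 kb, and for H4K16la-only regions it holds 45.3%.

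The members farthest from any other mark had summits of 9 to 15 fragments. The first, on chromosome 5 from 34942284 to 34943066, lay 95827 bp from the nearest such peak and had 12 fragments in lactate and 9 in control (−log10 q 2.56 in lactate, 2.64 in control). Chromosome 3 from 147606365 to 147606941 (79517 bp away) had 15 fragments in lactate and 11 in control, with a −log10 q of 3.78 in lactate and 4.02 in control, both above the members' medians. Chromosome 9 from 78288443 to 78288977 (73348 bp away) had 13 fragments in lactate and 9 in control (−log10 q 3.08 in lactate, 2.64 in control). Their local background was within 1.10 times the genome-wide one in both libraries.

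H4K16la peaks without another mark were seldom called in both conditions. Of the 41817 regions with H4K16la as the only mark, 1645 (3.93%, interval 3.75 to 4.12) had it in both libraries, 26482 in lactate alone and 13690 in control alone. Where another mark was present, 16005 of 43066 regions (37.2%, 36.7 to 37.6) had H4K16la in both. The same contrast was seen for H3K9la, with 5.62% of the regions without and 41.8% of those with another mark, and for H4K8la, with 3.23% and 39.7%. Regions with another mark were merged from the peaks of more lists, which leaves more room for both calls of a mark. Those stable for H4K16la also had stronger peaks. The part of width and strength in these contrasts was not tested. The single-mark share of stable regions was 9.32% for H4K16la, 10.2% (9.82 to 10.6) for H3K9la and 7.31% (6.94 to 7.70) for H4K8la.

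Members were spread over all chromosomes except Y, which held 2 stable H4K16la regions. On the 20 autosomes the single-mark share of stable H4K16la regions ran from 7.72% (5.70 to 10.4) on chromosome 18 to 11.4% (8.89 to 14.5) on chromosome 19, with intervals that overlap. On chromosome X it was 52 of 280 regions, or 18.6% (14.5 to 23.5), against 1593 of 17368, or 9.17% (8.75 to 9.61), on the autosomes. Counted over all merged regions, X lay among the autosomes. Members made up 1.06% (0.810 to 1.39) of its 4904 regions, where the autosomes ran from 0.689% on chromosome 18 to 1.17% on chromosome 19. The higher share on X is one of stable H4K16la regions, not of all regions. Position was not part of the rule. The stable H4K16la regions of X were weaker, however, with a median mean −log10 q of 4.10 against 4.91 on the autosomes. Between 3 and 5 the share was 21.6% (15.0 to 29.9) on X and 11.7% (11.0 to 12.5) on the autosomes, below 3 it was 42.4% (30.6 to 55.1) and 28.3% (26.5 to 30.2), and from 5 upward 1.90% (0.524 to 6.68) and 1.83% (1.56 to 2.14). For H4K8la the single-mark share was 15.3% (11.5 to 20.1) on X and 7.18% (6.82 to 7.57) on the autosomes, and for H3K9la 11.3% (7.75 to 16.1) and 10.2% (9.81 to 10.6). Of all regions on X, 5.71% were stable for H4K16la, against 10.1% on the autosomes. The part of the copy number of X in these shares was not tested.

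**Figure D5:**
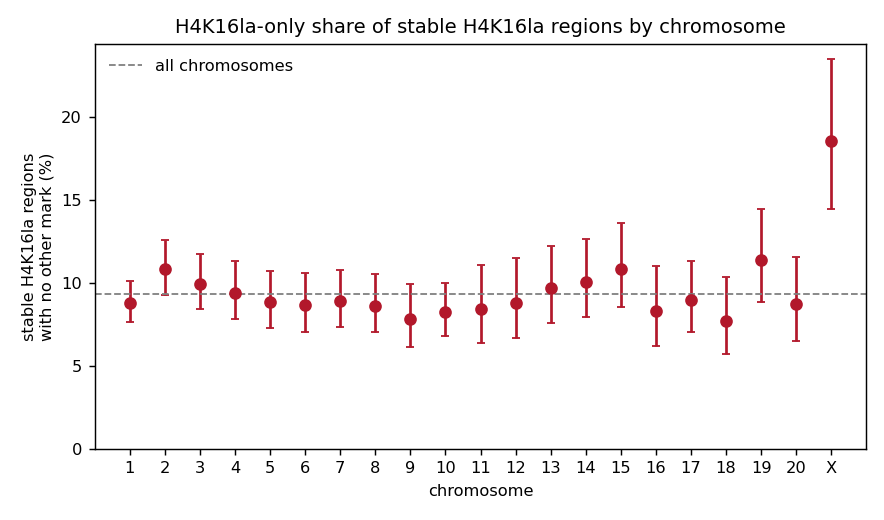
Share of the stable H4K16la regions that carry H4K16la alone (vertical axis, percent) on each chromosome, with Wilson 95% intervals; the dashed line is the share over all chromosomes, 9.32%. Chromosome X is at 18.6% (52 of 280 regions), and the autosomes lie between 7.72% and 11.4%.

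The median distance to the next member was 346939 bp, and 20 of 1645 lay within 10 kb of one. Of the 2627 windows of 1 Mb that held any region, 1541 held no member, 688 held 1, 283 held 2, 85 held 3 and 30 held 4 or more. The fullest window, on chromosome 5 from 160000001 to 161000000, held 7 members among its 20 stable H4K16la regions, spread over 649301 bp, with log2 ratios of lactate over control from −0.98 to 0.18. The windows of chromosome 7 (31000001 to 32000000) and chromosome 12 (13000001 to 14000000) held 6 members each among 13 stable H4K16la regions. In the same order, the 3 windows held 140, 85 and 109 merged regions. They were picked as the fullest of the 2627, and members were 9.32% of all stable H4K16la regions. Clustering of members was not tested. The nearest stable H4K16la region with another mark was 38282 bp away in the median, whereas the next H4K16la peak of any kind lay 8574 bp away.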

How the data were processed

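Peak lists of 6 rat tenocyte CUT&Tag libraries were used, grouped by sample title, which matches each treatment entry. The free-text protocol names 20 mM lactate for every library. Build rn7 and the tools Bowtie2, cutadapt, deepTools, FastQC and MACS2 are listed per the submitters' processing notes. Their versions and settings, and whether an IgG library entered peak calling, are not given in the sources used. If an IgG library did enter, the recovered backgrounds would come partly from it. One peak list was deposited per library. The deposited columns hold, for each peak, a fold (ratio of summit pileup to local background), −log10 p, −log10 q (lowest 1.30 to 1.31) and a score equal to 10 times the −log10 q, cut to a whole number; these are the authors' values. Summit pileups were recovered as the whole numbers for which fold = (pileup + 1)/(background + 1) and the upper Poisson tail match the deposited fold and −log10 p within 0.002. One was found for every peak. This reading is inferred from the values. The local background value shared by most peaks of a library (by 4839 to 11309 of them) served as its genome-wide background. Depth in reads is unknown. A region's value in a library is that of its peak of highest −log10 q. A log2 ratio therefore compares the summits of these peaks, which need not lie at the same position. A change of 1.5-fold or more was counted as past the threshold.

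The members and measures were chosen with earlier results of these data known. Named regions are the 10 of highest mean −log10 q, the 4 of highest and 4 of lowest log2 ratio with −log10 q of at least 5 in both libraries, the 3 widest, the 3 farthest from another mark, those nearest the overlap criterion, and the 3 fullest windows of 1 Mb; others are said to be chosen after their values were seen, as were the 2 weakest members. The comparisons of like strength, of local background and of chromosome X across marks were added after seeing the data. Gene lists and marker genes were not analysed here, since the gene and promoter tables at hand describe assembly GRCr8. The scripts were tested on simulated data. Python 3.11.15, numpy 2.4.6, pandas 2.3.3, scipy 1.17.1 and matplotlib 3.10.9 were used.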

Additional observations from a re-analysis of the deposited data

How the results depend on the processing

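Of 44 values recomputed under other settings, 20 stayed within the main interval (within 1.5 times for the count) and 24 moved. Only the median log2 ratios can change sign, and none of them did. With −log10 q of at least 2 in all lists, the median width was 632 bp and the median distance to another mark 6016 bp. At 5 in all lists, there were 320 members (6.04% of stable regions), with a width of 701.5 bp, a distance of 17970 bp and 1.88% on X. Their log2 ratio was −0.48, beside −0.61 over all stable regions at that setting. Of these members 37.5% were at least 1.5-fold lower with lactate, beside 52.9% of all stable regions. At 5 in the H4K16la lists alone, there were 45 (0.849%), with a width of 651 bp, a distance of 4318 bp and 0% on X. Their log2 ratio was −0.39, beside −0.61 over all stable regions at that setting. An overlap of 50% of the shorter peak gave 583 bp in width and 4411 bp in distance. Merging peaks up to 1000 bp apart gave 9.84% of stable regions, a width of 708 bp and a distance of 6296 bp. At that setting 24.4% of members were at least 1.5-fold lower, beside 42.0% of all stable regions. Without regions of high local background the share was 10.5%. With the authors' folds over local background, which also add 1 to pileup and background, the log2 ratio was −0.17. By these folds 6.87% were lower, beside 9.02% of all stable regions. The stricter lists hold fewer peaks by construction; the cause of the other shifts was not tested. No paired analysis was possible because each group has 1 library and no test was made, and for the same reason no library could be left out.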

Other observations

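H4K16la regions with no other mark and a call in 1 condition only were weaker than the members. The median −log10 q was 2.81 for the 26482 regions with H4K16la in lactate alone, where the members had 3.25 in the same library, and 2.62 for the 13690 in control alone, where the members had 2.88. A −log10 q of at least 5 was reached by 6.86% of the lactate-alone and 3.94% of the control-alone regions, against 14.7% of the members in lactate and 9.91% in control. Both sets of values belong to the calls that sorted the regions.

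The closest pair of members, chosen after its values were seen, lay 2672 bp apart on chromosome 2, from 32227816 to 32228401 and from 32231073 to 32231781. The first had 14 fragments at the summit in lactate and 8 in control, and the second 17 in lactate and 9 in control. Both were at least 39648 bp from another mark. Of the 2 members with more than 2 peaks, also chosen afterwards, the one on chromosome 17 from 15384839 to 15386040 had the higher lactate summit, with 40 fragments in lactate and 22 in control. The other, on chromosome 11 from 78438029 to 78439568, had 20 fragments with lactate, 22 in control and a log2 ratio of −1.03. Its lactate and control summits were 1178 bp apart, so that ratio compares different positions in the region. The summits of the member on chromosome 17 were 5 bp apart.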
